A study of Homo sapiens with 8 samples.

Results

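The transcripts of β-catenin, of the TCF/LEF factors that carry it to DNA and of their nuclear cofactors were followed in a leukaemia cell line and its drug-resistant derivative. The 10 genes were picked by symbol: CTNNB1, TCF7L2, LEF1, TCF7, BCL9, BCL9L, PYGO2, TLE1, TLE3 and AES. The deposited table of 19718 coding genes lists 9 of them. The level of BCL9 was not analysed here. Of the 9, 7 reached 1 FPKM (a fragment count divided by transcript length and library size) in at least 2 of 8 libraries and entered the tests with 11255 genes in all. TCF7 and TLE1 stayed below that level.

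The cells were HEL92.1.7, an established erythroleukaemia line that stands in for acute myeloid leukaemia of the secondary kind, and HEL OTX P/R, labelled as an OTX persister-resistant line derived from it; how it was selected is not stated in the labels. They are termed the parental and the P/R line here. RNA came from 4 groups with 2 libraries each: parental untreated, parental in 1000 nM OTX015 for 8 hours, P/R untreated, and P/R in 1000 nM OTX015 for 8 hours. OTX015 (birabresib) occupies the bromodomains of BET proteins and so displaces them from acetylated chromatin. The series title links β-catenin, TCF7L2, JMJD6 and MYC to resistance against this class of drug. All groups derive from 1 line and 1 resistant derivative, so the line comparison has no second, independently selected derivative. The submitters describe the replicates as biological and treated separately.

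β-catenin is held low in the cytoplasm by a destruction complex that marks it for degradation, and WNT signals at the cell surface stop this. The stabilised protein enters the nucleus and binds TCF/LEF factors, which sit on DNA at sequences related to CTTTG. Without β-catenin these factors recruit TLE (Groucho) corepressors. With it, BCL9 or BCL9L bridges to PYGO2 and transcription is switched on. Regulation of β-catenin is largely at the level of protein stability, which RNA levels do not report.

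The table tells little of the quality of the libraries. Quantile normalization gives every library the same total of 678133 FPKM, so depth and counting error are unknown. Over the genes tested, which are no independent replicates, Pearson r of the normalized log2(FPKM + 1) was 0.9957 to 0.9966 within groups and 0.9591 to 0.9846 across them. All 10 erythroid markers and all 6 megakaryocyte markers examined reached 1 FPKM in at least 2 libraries. Levels of some differed between the untreated lines, in both directions. PF4 stood at 2.0 to 2.66 FPKM in parental and 47.4 to 50.4 in P/R libraries. ITGA2B stood at 366 to 390 and 300 to 326, and TFRC at 229 to 260 and 99.6 to 104. LEF1 and TCF7 are also genes of lymphocytes. Of 8 T cell markers 7 were listed, CD3D, CD3G and CD28 stood at 0 in all 8 libraries, and CD3E reached at most 0.04 FPKM. IL7R, like CD4, was lower in treated than in untreated libraries of each line. The IL7R level was 1.0 to 1.18 FPKM in parental untreated and 0.454 to 0.548 in parental OTX015 libraries. In P/R libraries it was 1.03 to 1.08 FPKM untreated and 0.526 to 0.701 under OTX015. The summed T cell markers, which were mostly CD4, ran from 11.7 to 12.3 FPKM in parental untreated, from 9.76 to 10.2 in parental OTX015, from 17.6 to 17.9 in P/R untreated and stood at 14.4 in P/R OTX015 libraries. Of the B cell markers, MS4A1 stood at 0 in all 8 libraries and PAX5 reached at most 0.0657 FPKM. CD79A was lower in treated than in untreated libraries, as LEF1 was: 5.46 to 5.69 FPKM in parental untreated, 3.32 to 3.65 in parental OTX015, 1.48 to 1.73 in P/R untreated and 1.14 to 1.33 in P/R OTX015 libraries. The 3 endothelial markers summed to 14.1 to 15.2, 7.98 to 8.17, 21.2 to 21.5 and 13.9 to 14.2 FPKM in the same order. Of these, PECAM1 and CDH5 were lower in treated libraries of each line. KDR was higher, at 3.15 to 3.48, 3.73 to 4.13, 5.31 to 5.34 and 6.15 to 6.28 FPKM. The part of these markers in the results was not tested. In bulk RNA, fewer cells with a transcript and less transcript per cell cannot be told apart.

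OTX015 moved the group in both directions. CTNNB1, PYGO2 and TLE3 rose in both lines, LEF1 and BCL9L fell in both lines, and TCF7L2 and AES passed as falls in P/R cells without passing in parental cells, a difference between the lines that itself passed for neither. In parental cells 5 of the 7 tested genes passed (3 higher, 2 lower), where 50.4% of all genes tested passed, 25.7% higher and 24.7% lower. In P/R cells 7 of 7 passed (3 higher, 4 lower), against 44.3% of all genes, 22.5% higher and 21.8% lower. With that many genes moving, passing the test does not set these genes apart. The treated and untreated libraries did not overlap for any of the 7 genes in either line; the same held for 75.6% of all genes tested in parental and 72.7% in P/R cells.

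**Figure D1:**
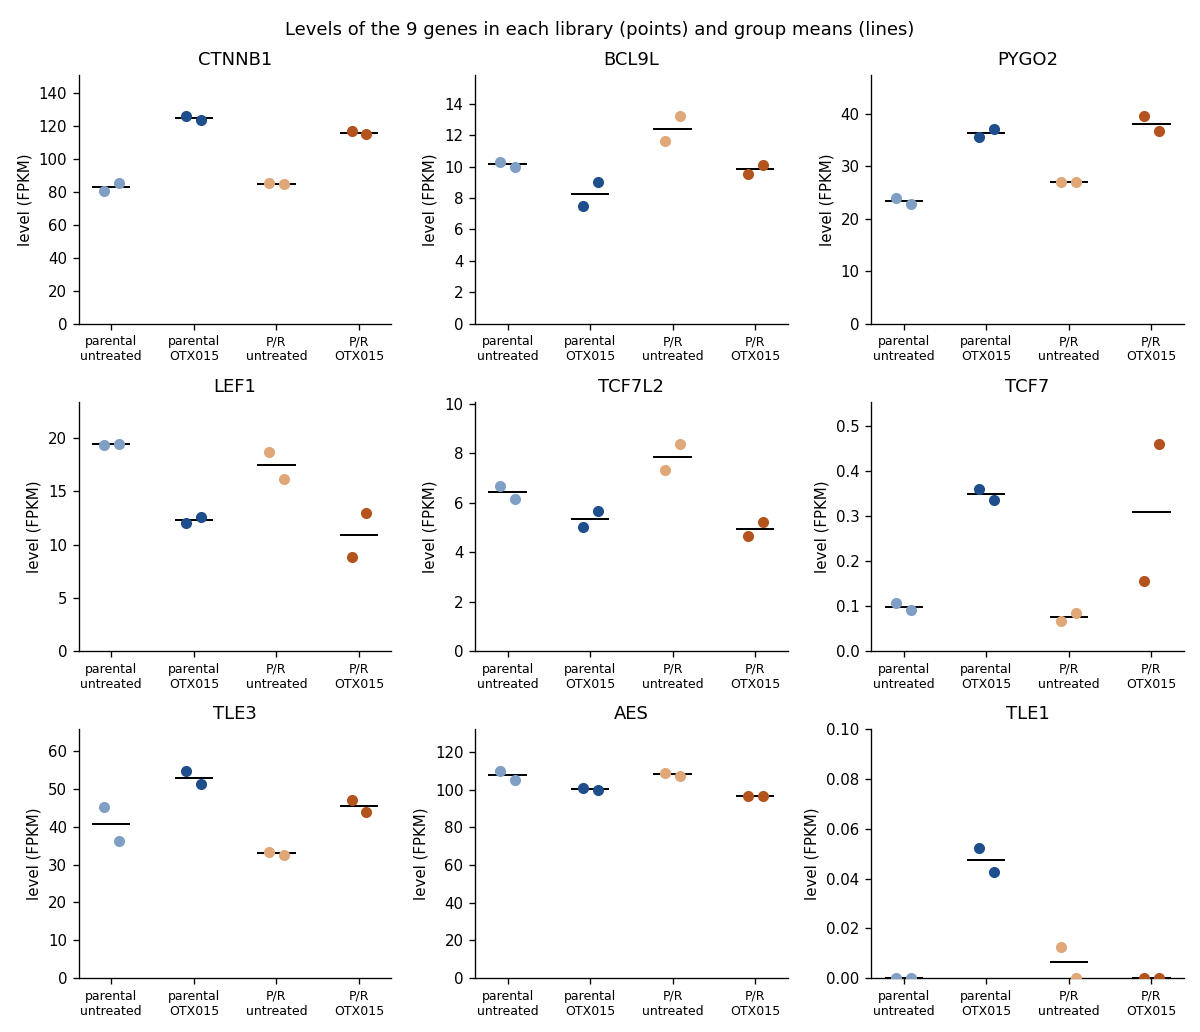
Level (FPKM, linear axis from 0, own scale in each panel) of the 9 listed genes in each of the 8 libraries (points), with group means (lines). The treated points of CTNNB1, PYGO2 and TLE3 lie above, and those of LEF1, TCF7L2, BCL9L and AES below, the untreated points of the same line; TCF7 and TLE1 stay under 0.5 FPKM.

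CTNNB1 (ENSG00000168036.16) encodes β-catenin itself. It was among the most abundant transcripts of the group, above 93.5% to 96.0% of all listed genes by group mean. The 2 parental untreated libraries held 80.7 and 85.5 FPKM and the 2 parental OTX015 libraries 126 and 124. For the P/R line, untreated libraries held 85.3 and 84.6 FPKM and P/R OTX015 libraries 117 and 115. All 4 treated libraries thus lay above all 4 untreated ones, and the untreated libraries of the lines overlapped. The rise was 1.5-fold in parental cells (log2 difference 0.58, 95% confidence interval 0.48 to 0.68, adjusted p = 1.262e-05) and 1.37-fold in P/R cells (0.45, interval 0.34 to 0.55, adjusted p = 7.631e-05). These log2 differences are of log2(FPKM + 1), as all those below, and the adjusted p-values come from limma with Benjamini-Hochberg adjustment over all genes tested.

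LEF1 (ENSG00000138795.9) was the main TCF/LEF transcript of these cells. Its factor binds DNA alone but activates mostly with β-catenin. The parental untreated libraries held 19.4 and 19.5 FPKM, and the parental OTX015 libraries 12.0 and 12.6. The P/R untreated libraries held 18.7 and 16.2 FPKM and the treated ones 8.82 and 13.0. Treated libraries were lower in both lines, and the P/R treated pair was the most spread, enclosing the parental treated pair. LEF1 fell to 0.631 of its untreated mean in parental cells (log2 difference -0.62, interval -0.95 to -0.30, adjusted p = 0.00575) and to 0.624 in P/R cells (-0.65, interval -0.98 to -0.33, adjusted p = 0.00539). The size of the P/R fall depended on its treated libraries: it was -0.40 (adjusted p = 0.0195) without replicate 1 and -0.91 (adjusted p = 0.000671) without replicate 2.

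TCF7L2 (ENSG00000148737.15), the factor named in the series title, is widely expressed and can repress or activate depending on its partners. The RefSeq promoter table holds 3 transcription starts for it, at its 5′ end and at 176386 and 179024 bases downstream of it on chromosome 10. The table gives 1 value per gene, so the values below do not tell the starts apart. The 250 bases before the first start and before the second are shown to set these promoters side by side, each read 5′ to 3′ on the plus strand of GRCh38.p14 (RefSeq), with the core CTTTG or its reverse complement CAAAG in capitals. The first lies at chr10:112949997-112950246, overlaps no GENCODE exon and has a GC content of 68.0%. The second lies inside the gene at chr10:113126383-113126632, overlaps no exon either and has a GC content of 42.4%.
TCF7L2 first start: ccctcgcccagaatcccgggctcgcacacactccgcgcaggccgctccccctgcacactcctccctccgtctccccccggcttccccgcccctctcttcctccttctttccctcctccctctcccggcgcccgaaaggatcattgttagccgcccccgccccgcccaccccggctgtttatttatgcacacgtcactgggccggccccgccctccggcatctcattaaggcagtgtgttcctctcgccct
TCF7L2 second start: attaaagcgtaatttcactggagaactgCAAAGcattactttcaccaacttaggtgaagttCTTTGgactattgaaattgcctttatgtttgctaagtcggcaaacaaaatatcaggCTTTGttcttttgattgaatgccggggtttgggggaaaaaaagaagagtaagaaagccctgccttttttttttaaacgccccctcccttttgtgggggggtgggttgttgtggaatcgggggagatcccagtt
The first stretch holds 0 copies of the core and the second holds 3.

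The TCF7L2 level was 6.69 and 6.15 FPKM in the parental untreated libraries and 5.01 and 5.68 in the parental OTX015 libraries. The P/R libraries held 7.31 and 8.39 FPKM untreated and 4.63 and 5.22 treated. The P/R untreated libraries were the highest and the P/R treated libraries reached the lowest, so the range was widest in the P/R line. The fall to 0.627 of the untreated mean in P/R cells passed the test (log2 difference -0.58, interval -0.82 to -0.34, adjusted p = 0.00212). In parental cells the treated mean was 0.832 of the untreated one (-0.23, interval -0.47 to 0.01, adjusted p = 0.104). The test of the difference between these responses gave -0.35 (interval -0.69 to -0.01, unadjusted p = 0.0438), which did not pass over all genes (adjusted p = 0.497).

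TCF7 (ENSG00000081059.19), the T cell factor of the family, was scarce. It stood at 0.107 and 0.0906 FPKM in parental untreated, 0.361 and 0.336 in parental OTX015, 0.0664 and 0.0851 in P/R untreated, and 0.155 and 0.462 in P/R OTX015 libraries. All 4 treated libraries were above all 4 untreated ones, but the gene was too low to be tested with the others. With no filter on low values, the log2 difference was 0.30 in parental cells (adjusted p = 0.0747) and 0.27 in P/R cells (adjusted p = 0.104). TCF7L1, the fourth family member, reached at most 0.193 FPKM.

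The TCF/LEF transcripts as a pool became fewer under OTX015. The sum of TCF7, LEF1, TCF7L1 and TCF7L2 was 26.3 and 25.8 FPKM in parental untreated libraries and 17.4 and 18.7 in treated ones. The P/R sums were 26.3 and 24.7 FPKM untreated and 13.6 and 18.7 treated. LEF1 supplied 73.8% and 75.6% of the sum in parental untreated, 68.7% and 67.5% in parental OTX015, 71.2% and 65.4% in P/R untreated and 64.6% and 69.4% in P/R OTX015 libraries. The LEF1 share was thus lower in treated than untreated parental libraries and overlapped between treated and untreated P/R libraries. The ratio of CTNNB1 to LEF1 plus TCF7L2 was 3.09 and 3.33 in parental untreated libraries and 7.39 and 6.78 under OTX015, and 3.28 and 3.44 in P/R untreated libraries and 8.69 and 6.34 under OTX015. These sums and ratios are of RNA, are not tested and restate the values above on another scale.

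**Figure D2:**
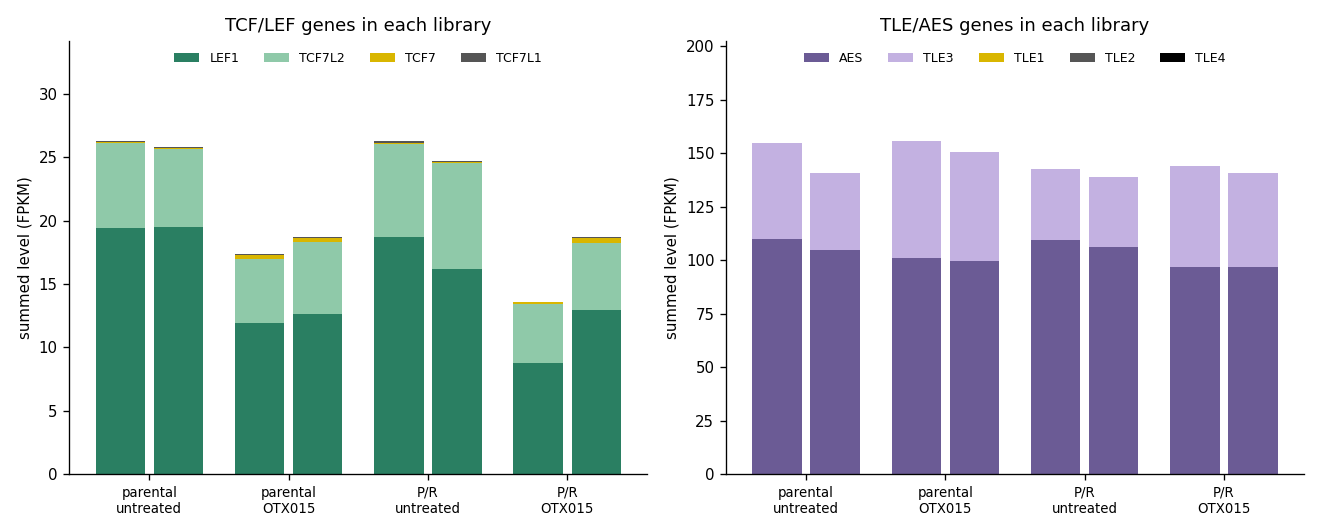
Summed level (FPKM, stacked, axis from 0) of the TCF/LEF genes (left) and of the TLE genes with AES (right) in each of the 8 libraries, 2 bars per group. The TCF/LEF sum is 24.7 to 26.3 FPKM in untreated and 13.6 to 18.7 in treated libraries, mostly LEF1; the TLE/AES sum stays between 139 and 156 FPKM.

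BCL9L and PYGO2, the coactivator chain on β-catenin, moved apart. BCL9L (ENSG00000186174.12) is the adaptor that touches β-catenin and holds PYGO2. Its level was 10.3 and 10.0 FPKM in parental untreated, 7.48 and 9.02 in parental OTX015, 11.6 and 13.2 in P/R untreated, and 9.54 and 10.1 in P/R OTX015 libraries. Treated libraries were lower within each line, and the P/R treated pair overlapped the parental untreated pair. BCL9L fell to 0.811 of its untreated mean in parental cells (log2 difference -0.28, interval -0.51 to -0.05, adjusted p = 0.0465) and to 0.795 in P/R cells (-0.30, interval -0.53 to -0.07, adjusted p = 0.0373). Both calls lay near the threshold. In parental cells the call was lost without parental untreated replicate 1 (adjusted p = 0.142) or 2 (0.106), without parental OTX015 replicate 1 (-0.16, adjusted p = 0.289), and without P/R OTX015 replicate 1 (0.0581) or 2 (0.0583). The P/R call was lost without P/R untreated replicate 2 (adjusted p = 0.221) and without P/R OTX015 replicate 1 (0.150) or 2 (0.0721).

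PYGO2 (ENSG00000163348.3) reads methylated histone H3 through its PHD finger and completes the chain. It stood at 23.9 and 22.9 FPKM in parental untreated, 35.5 and 37 in parental OTX015, 26.9 and 27.0 in P/R untreated, and 39.5 and 36.7 in P/R OTX015 libraries. All treated libraries were above all untreated ones, and the treated pairs of the lines overlapped. PYGO2 rose 1.55-fold in parental cells (log2 difference 0.61, interval 0.47 to 0.75, adjusted p = 5.056e-05) and 1.41-fold in P/R cells (0.48, interval 0.34 to 0.62, adjusted p = 0.000265). The ratio of PYGO2 to BCL9L was 2.32 and 2.28 in parental untreated libraries and 4.75 and 4.1 under OTX015, and 2.32 and 2.05 in P/R untreated libraries and 4.14 and 3.62 under OTX015. PYGO1, the paralogue, stayed between 0.283 and 1.09 FPKM.

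Of the corepressors, TLE3 rose in both lines and AES passed as a small fall in P/R cells. TLE3 (ENSG00000140332.15) is a full-length Groucho protein that binds TCF/LEF factors in the absence of β-catenin. The parental untreated libraries held 45.1 and 36.2 FPKM, the widest pair of the 4 groups, and the parental OTX015 libraries 54.8 and 51.2. In P/R cells the levels were 33.3 and 32.6 FPKM untreated and 47.1 and 43.8 treated. Treated libraries were higher within each line, but the P/R treated pair overlapped the parental untreated pair. TLE3 rose 1.31-fold in parental cells (log2 difference 0.38, interval 0.17 to 0.59, adjusted p = 0.00758) and 1.38-fold in P/R cells (0.45, interval 0.24 to 0.66, adjusted p = 0.00393). Without parental untreated replicate 2 the parental rise was 0.23 (adjusted p = 0.0423), and without replicate 1 it was 0.54 (adjusted p = 0.00106).

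AES (ENSG00000104964.14, now named TLE5) is a short Groucho relative that lacks the repressing repeats and can blunt the longer TLE proteins. It was the most abundant of the TLE transcripts, above 94.5% to 95.2% of all listed genes. Its libraries held 110 and 105 FPKM in parental untreated, 101 and 99.7 in parental OTX015, 109 and 107 in P/R untreated, and 96.7 and 96.6 in P/R OTX015 cells. The treated pair was lower in each line and the untreated pairs of the lines overlapped. The fall to 0.894 of the untreated mean in P/R cells passed (log2 difference -0.16, interval -0.26 to -0.06, adjusted p = 0.0159), and was lost without P/R untreated replicate 1 (-0.14, adjusted p = 0.107) or 2 (-0.18, adjusted p = 0.0564). In parental cells the ratio was 0.934 (-0.10, adjusted p = 0.092).

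TLE1 (ENSG00000196781.13), another full-length corepressor, was nearly undetected. It was listed at 0 in both parental untreated, 1 P/R untreated and both P/R OTX015 libraries, at 0.0127 FPKM in the other P/R untreated library and at 0.0521 and 0.0426 in the parental OTX015 libraries. TLE4 was listed at 0 everywhere, and TLE2 and TLE6 reached at most 0.297 and 0.282 FPKM. TLE3 and AES therefore made up nearly all of the TLE pool. TLE3 supplied 29.1% and 25.6% of it in parental untreated, 35.1% and 33.9% in parental OTX015, 23.3% and 23.4% in P/R untreated and 32.8% and 31.1% in P/R OTX015 libraries. The TLE3 share was higher in all treated than in all untreated libraries, while the summed level overlapped between treated and untreated libraries of both lines.

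**Figure D3:**
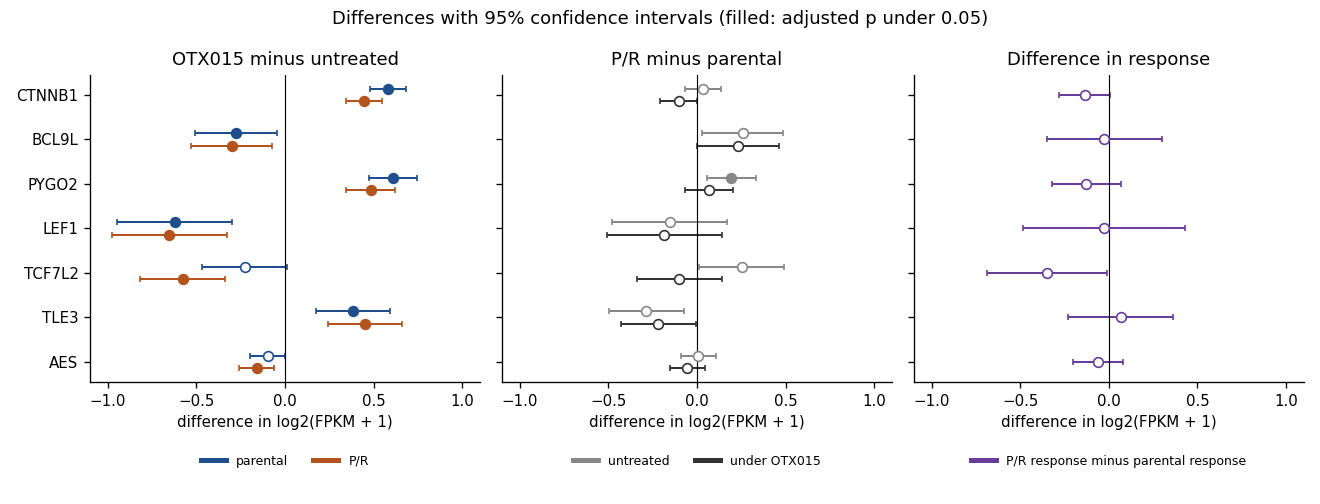
Differences in log2(FPKM + 1) of the 7 tested genes with 95% confidence intervals: OTX015 minus untreated in each line (left), P/R minus parental in each condition (middle), and the P/R response minus the parental response (right); filled points passed at an adjusted p under 0.05. Points are filled for 5 genes in parental and 7 in P/R cells on the left, for PYGO2 untreated in the middle, and for 0 genes on the right.

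Fewer of these genes passed between the lines than with the drug. In untreated cells 1 of 7 passed, PYGO2, which was 1.15-fold higher in P/R cells (log2 difference 0.19, interval 0.06 to 0.33, adjusted p = 0.0474). Of all genes 23.5% passed, 11.7% higher and 11.9% lower. The PYGO2 call did not survive leaving out parental untreated replicate 1 (adjusted p = 0.0882) or 2 (0.183), P/R untreated replicate 1 (0.164) or 2 (0.176), or parental OTX015 replicate 1 (0.0653) or 2 (0.0656). TLE3 was 0.812 of the parental mean (a log2 difference of -0.28, adjusted p = 0.0549), which became -0.44 (adjusted p = 0.00638) without parental untreated replicate 2 and -0.13 (adjusted p = 0.305) without replicate 1. CTNNB1 differed by 0.03 (interval -0.07 to 0.13, adjusted p = 0.661) and LEF1 by -0.15 (interval -0.48 to 0.17, adjusted p = 0.489). The LEF1 value was -0.25 without P/R untreated replicate 1 and -0.06 without replicate 2. TCF7L2 was 1.22-fold the parental mean (0.25, interval 0.01 to 0.49) and BCL9L 1.22-fold (0.26, interval 0.03 to 0.49). Neither passed over all genes (adjusted p = 0.123 and 0.103). AES differed by 0.01 (interval -0.09 to 0.11, adjusted p = 0.920).

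Under OTX015, limma called 0 of 7 genes between the lines, against 24.4% of all genes. The point estimate was lower in P/R cells for CTNNB1 (log2 difference -0.10, adjusted p = 0.135) and TLE3 (-0.22, adjusted p = 0.126). For BCL9L it was higher (0.23, adjusted p = 0.135). The BCL9L difference was 0.11 without parental OTX015 replicate 1 and 0.35 without replicate 2. TLE3 passed without parental untreated replicate 1 (adjusted p = 0.0382) or 2 (0.0376), whose spread enters the shared variance. LEF1 differed by -0.18 (interval -0.51 to 0.14), passed without P/R OTX015 replicate 2 (-0.44, adjusted p = 0.0223) and changed sign without replicate 1 (0.07, adjusted p = 0.692). The order of the lines in LEF1 under the drug therefore rested on 1 library.

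The responses of the lines to OTX015 were compared directly by an interaction contrast. It passed for 0 of the 7 genes in limma, where 0.08% of all genes passed. For TCF7L2 it gave -0.35 (interval -0.69 to -0.01, adjusted p = 0.497). The CTNNB1 rise was smaller in P/R cells by 0.14 in the point estimate (interval -0.28 to 0.01, adjusted p = 0.548). For LEF1 the difference in response was -0.03 with an interval from -0.49 to 0.43, for BCL9L -0.02 (interval -0.35 to 0.30) and for TLE3 0.07 (interval -0.23 to 0.36). Intervals of this width do not show that the lines responded alike. The other genes, PYGO2 (-0.13) and AES (-0.06), had adjusted p = 0.697 and 0.805.

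The wider WNT pathway was read through 7 further lists of textbook members, whose counts stand against the 50.4% of all genes that passed in parental and 44.3% in P/R cells. Genes that reached 1 FPKM only with the drug or only without it were SFRP5, RSPO2, WNT5B, FZD4, SP5 and CDH5. They passed the filter through 1 side, so their direction under OTX015 was fixed. They are left out of the OTX015 counts and medians below. NKD1 stood at 0.902, 0.488, 1.2 and 0.878 FPKM in untreated and 1.01, 2.29, 2.0 and 1.05 in treated libraries. Its untreated libraries alone would not have met the filter. It is kept in the counts and medians and was called in neither line. Among 20 nuclear β-catenin partners and regulators, all tested, 5 rose and 8 fell under OTX015 in parental cells and 3 rose and 7 fell in P/R cells. The median log2 difference was -0.01 and 0.03, against 0.02 in each line over all genes tested and -0.10 and -0.16 over the 7 tested members. CTNNBIP1 (ICAT), a small protein that keeps β-catenin off TCF factors, had the largest rise of the list. It went from 5.13 and 4.15 to 17.1 and 17.5 FPKM in parental cells, 3.73-fold (log2 difference 1.70, adjusted p = 1.089e-05), and from 5.61 and 4.14 to 11.7 and 11.0 FPKM in P/R cells, 2.33-fold (1.08, adjusted p = 0.000188). The histone acetyltransferase gene EP300, a β-catenin coactivator, rose 1.45-fold in parental cells (adjusted p = 0.0043) and 1.39-fold in P/R cells (adjusted p = 0.00945), the latter lost without P/R untreated replicate 2 (adjusted p = 0.0694) or P/R OTX015 replicate 1 (0.0658). NLK, a kinase that phosphorylates TCF/LEF factors, fell in parental cells from 22.4 and 23.5 to 16.4 and 16.4 FPKM (-0.46, adjusted p = 0.000484), and was already lower in untreated P/R cells, at 13.7 and 13.2 (-0.72, adjusted p = 7.673e-05). CTNNBL1, a β-catenin-like splicing-associated protein, was likewise lower in untreated P/R cells, at 67.2 ± 1.63 FPKM against 106 ± 1.49 (mean ± SD, n = 2; -0.65, adjusted p = 1.795e-05). In that line comparison 0 of the 20 were higher and 4 lower, against 11.7% and 11.9% of all genes tested.

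The title gene JMJD6, which encodes an oxygenase of the JmjC family and is one of the 20, fell to 0.6 of its untreated level in parental and 0.688 in P/R cells (log2 differences -0.71 and -0.52). Untreated, JMJD6 stood at 30.3 and 31.4 FPKM in parental and 34.2 and 36.3 in P/R cells, which did not pass. Under OTX015 it stood at 19.1 and 17.9 FPKM in parental and 23.5 and 25.0 in P/R cells, which passed as higher. MYC fell to 0.867 in parental cells (-0.21, adjusted p = 0.000868) and to 0.846 in P/R cells (-0.24, adjusted p = 0.000454). In untreated cells MYC was lower in the P/R line (log2 difference -0.12, adjusted p = 0.0292), a call lost without any 1 of the 4 untreated libraries (adjusted p up to 0.161). Under OTX015 MYC also passed as lower in the P/R line, at 386 and 394 FPKM against 434 and 434. The MYC replicates have equal values in 3 of 4 groups because quantile normalization gives equal ranks equal values. The spread behind the MYC p-values may therefore understate the variation between libraries.

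Of the destruction complex and its ubiquitin ligases, 17 genes were tested, and 3 rose and 1 fell in each line, 23.5% of the list, a share below that of all genes in both lines (median log2 difference 0.09 in parental and 0.03 in P/R cells). GSK3B, a kinase that marks β-catenin for degradation, rose from 14.4 and 14.3 to 23.2 and 21.7 FPKM in parental cells (log2 difference 0.61, adjusted p = 0.00331). In P/R cells it went from 14.0 and 17.6 to 25.9 and 20.0 (0.51, adjusted p = 0.00963), a call lost without P/R untreated replicate 1 (0.36, adjusted p = 0.0748) or P/R OTX015 replicate 1 (0.33, adjusted p = 0.0724). Its relative GSK3A rose 1.19-fold in parental (adjusted p = 0.00262) and 1.28-fold in P/R cells (adjusted p = 0.000528). The scaffolds APC and AXIN1 passed in neither line, with log2 differences of -0.17 and 0.09 in parental and -0.19 and 0.14 in P/R cells.

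At the cell surface, 5 of 20 listed WNT ligand and release genes were high enough to test. Without WNT5B, 1 of 4, WNT10B, fell in both lines and 0 rose (medians -0.34 and -0.17). WNT10B went from 5.81 and 5.59 to 1.88 and 1.43 FPKM in parental cells (log2 difference -1.34, adjusted p = 1.856e-05) and from 5.2 and 5.36 to 2.01 and 1.75 in P/R cells (-1.13, adjusted p = 6.786e-05). WNT5B, usually a ligand of the β-catenin-independent branch, was lower in untreated P/R libraries (1.98 and 2.43 FPKM) than in parental ones (8.09 and 7.57; -1.47, adjusted p = 0.000169). Of 12 receptor and DVL genes, 4 rose and 0 fell in parental cells, and 4 rose and 1 fell in P/R cells (medians 0.12 and 0.06). LRP6, the co-receptor that relays WNT binding, rose 1.39-fold in parental (adjusted p = 0.00283) and 1.84-fold in P/R cells (adjusted p = 0.000125). Of 7 antagonist and R-spondin genes 0 rose and 2 fell in each line (medians -0.04 and -0.03). These 2 were RNF43 and NOTUM, which are counted again among the WNT target genes below.

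β-catenin also joins cadherins to the cytoskeleton, and 3 adhesion partners beside CDH5 were tested. All 3 rose in each line (medians 0.42 and 0.57). JUP, which encodes plakoglobin, the closest relative of β-catenin, went from 17.4 and 16.7 to 48.2 and 51.4 FPKM in parental cells, 2.93-fold (log2 difference 1.50, adjusted p = 8.1e-07), and from 8.36 and 8.97 to 27.6 and 26.1 in P/R cells, 3.1-fold (1.53, adjusted p = 1.131e-06). Untreated P/R cells had 0.509 of the parental JUP level (-0.90, adjusted p = 2.451e-05). CTNNA1, the α-catenin that binds both, rose 1.34-fold in parental (adjusted p = 0.000513) and 1.5-fold in P/R cells (adjusted p = 0.000112).

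WNT target genes moved both ways. Of 16, 4 rose and 6 fell in parental cells, where 25.7% of all genes passed higher and 24.7% lower, and 4 rose and 7 fell in P/R cells, against 22.5% and 21.8%. The median log2 difference was -0.12 and -0.18 where all genes tested had medians of 0.02 and 0.02. FOSL1, an AP-1 subunit, fell from 33.1 and 29.2 to 8.81 and 9.37 FPKM in parental (-1.67, adjusted p = 1.863e-06) and from 32.3 and 31.8 to 12.5 and 10.6 in P/R cells (-1.40, adjusted p = 7.265e-06). The feedback inhibitors RNF43 and NOTUM fell in both lines, in P/R cells to 0.404 and 0.434 of their untreated means (adjusted p = 0.000285 and 0.000103). ABCB1, a drug efflux pump, rose 1.48-fold in parental (adjusted p = 0.000217) and 1.4-fold in P/R cells (adjusted p = 0.000721). AXIN2, a target often used as a readout of the pathway, was listed at 0 in all 8 libraries. In untreated cells 2 of 17 tested were higher and 4 lower in P/R than in parental cells, against 11.7% and 11.9% of all genes tested. Among the lower was CCND2, at 3.01 and 3.15 FPKM against 13.3 and 12.3 (-1.76, adjusted p = 2.928e-06). The difference in response between the lines passed for 0 genes of these lists in limma.

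**Figure D4:**
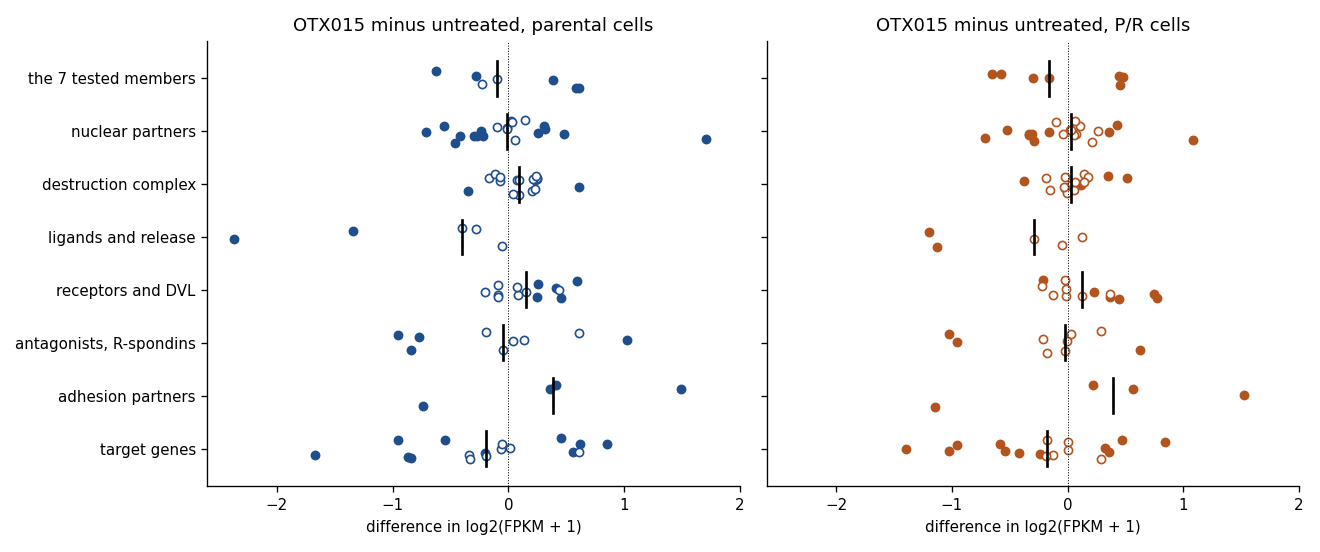
Difference in log2(FPKM + 1), OTX015 minus untreated, of each tested gene in the 7 genes described and the WNT pathway lists, in parental (left) and P/R cells (right); filled points passed at an adjusted p under 0.05 and black bars are medians. The 6 genes left out of the counts in the text are shown and enter the bars, WNT5B farthest left in parental cells. CTNNBIP1, at 1.70 and 1.08, is the farthest right of the nuclear partners and regulators.

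Across the 8 libraries, the tested genes whose log2 profile lay closest to each of the 3 leading members were found by the root mean square difference after removing each gene's mean. For CTNNB1 they were KIDINS220 (0.0271, Pearson r = 0.995), TBC1D12 (0.0348, r = 0.992) and DPP3 (0.0355, r = 0.991), against a standard deviation of 0.261 of CTNNB1 itself. For LEF1 they were POLE2 (0.0972, r = 0.972), TMEM62 (0.0982, r = 0.962) and DNAJC2 (0.101, r = 0.961), against 0.357. For TCF7L2 they were ZBTB38 (0.0729, r = 0.955), PLSCR1 (0.0736, r = 0.952) and IQSEC3 (0.0781, r = 0.945), against 0.235. The 8 points share 4 groups and 1 normalization, so these figures describe likeness and carry no test. None of the 9 nearest genes is in the WNT lists.

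The promoter windows were searched for extended forms of the TCF/LEF site and for its core alone. RefSeq windows of 300 bases, from 250 before to 50 after a start, were matched for 9 of the 10 genes, 15 windows in all, and BCL9L was not matched. The extended forms CTTTGAA and CTTTGAT, searched on both strands, were in 0 of the 15, against 6.86% of all 35116 windows. Other extensions of the core were not searched, such as the CTTTGTT in the second TCF7L2 stretch printed above. The shorter core CTTTG, searched on both strands after these longer forms had no match, was in the 250 upstream bases of 7 of 15, against 42.1% of all. These matches describe letters in the windows only.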

How the data were processed

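RNA was sequenced from 8 libraries in 4 groups. The deposited table holds 1 value per gene and library, taken as FPKM: the header names no unit, and the values are neither whole nor negative. TopHat2 2.0, Cufflinks 2.0 and the build hg19 are named per the submitters' processing notes; no role, annotation or strand setting is stated there. These deposited FPKM are quantile-normalized, as the values show (sorted values of 2 libraries differ by at most 0.136% at a mean of 1 FPKM or more), which removes global shifts in RNA content. Reads from overlapping genes or paralogues may be divided in ways the table does not show.

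Genes with at least 1 FPKM in at least 2 libraries entered a 4-group linear model of log2(FPKM + 1), which understates the change of low genes, in limma 3.58.1 (R 4.3.3, eBayes with variance trend, 4 residual and 5.23 prior degrees of freedom). The 5 contrasts have two-sided p-values, Benjamini-Hochberg adjusted across the genes tested, with calls under 0.05. With 2 libraries a group an exact permutation test cannot go below p = 0.333, so none is printed. Folds are ratios of mean FPKM. The fit was also run on simulated data with planted changes and no quantile normalization, which does not test the calls made here.

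The members and lists were chosen with earlier results of these data known. The rule for names took all members, up to 3 rises and 3 falls per list that passed, reached a mean of 5 FPKM in 1 of the groups without overlap, the title genes and the 3 nearest profiles of CTNNB1, TCF7L2 and LEF1. From these, examples were picked after their values were seen, and APC, AXIN1, AXIN2 and the scarce paralogues were added. Replicate numbers did not pair the samples. Printed promoter bases avoid GENCODE v29 UTRs. The alternatives were other pseudocounts and filters, no variance trend, median centring, a replicate block, only the groups compared, a stricter threshold and leaving out each library, where the lone library of a group is assumed to vary like the other groups.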

Additional observations from a re-analysis of the deposited data

How the results depend on the processing

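The rises of CTNNB1, PYGO2 and TLE3 and the fall of LEF1 under OTX015 in both lines, and the fall of TCF7L2 in P/R cells, kept direction and call in all 17 alternatives run for each. The number of genes called under OTX015 was 4 to 5 of 7 in parental and 5 to 7 in P/R cells; with no filter the 5 of parental cells included TLE1 in place of BCL9L. BCL9L kept its call in 7 of 17 alternatives in parental and 12 of 17 in P/R cells, and AES in 13 of 17 in P/R cells. Between untreated lines the count of 1 became 0 with a pseudocount of 5, no filter, no variance trend, only the groups compared or a threshold of 0.01, became 2 with a mean of at least 5 FPKM (TLE3 added), and was 0 to 1 with a library left out. Under OTX015 the count of 0 became 1 with no filter (TLE1) and was 0 to 1 with a library left out.

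With a library left out, signs changed for small differences whose tests did not pass. Between untreated lines CTNNB1 ran from -0.00942 to 0.0742 and AES from -0.0242 to 0.0404; under OTX015 LEF1 ran from -0.438 to 0.0708. In the difference in response TLE3 ran from -0.0879 to 0.222, BCL9L from -0.145 to 0.0952 and LEF1 from -0.283 to 0.225. The cause was not tested.

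Same-numbered libraries deviated together at r = -0.12 to 0.104 over 6 group pairs. A replicate block left the member counts at 5, 7, 1, 0 and 0 over the 5 contrasts, but between untreated lines PYGO2 lost its call (adjusted p = 0.064) and TLE3 gained one (0.026). Because 1 pair of groups lay below -0.1, a crossed block was added after seeing the data for the lines under OTX015: 0 members and 2548 genes were called, against 2747 in the reported fit and 2555 with the plain block.

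Counts over all genes moved by more than 1.5 times at a threshold of 0.01 (P/R response 4981 to 3289, untreated lines 2647 to 1507, lines under OTX015 2747 to 1581), and with a library left out (untreated lines down to 1594, lines under OTX015 down to 1758). The difference in response called 9 genes, and 0 to 29 under the alternatives. Of the pathway genes that met the naming rule, 20 of 23 calls in parental cells, 15 of 24 in P/R cells and 6 of 15 between untreated lines held in every alternative. Depth is unknown, so what it limits cannot be stated.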
